A study of Mus musculus with 12 samples.

Results

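Of 2842 BRD3-bound regions listed in macrophage-like cells given both RANKL and the BET inhibitor I-BET, 738 had no counterpart in the list from cells given I-BET alone. That is 26.0% of the both-agents list (exact 95% binomial interval 24.4 to 27.6%), and the regions come from 16188 in all 8 lists of the study. A region counted as shared when it overlapped an I-BET region by at least 1 bp, and the 738 are called both-agents-only regions below. Chromatin immunoprecipitation and sequencing (ChIP-seq) of BRD3 and of BRD2 was done in RAW264.7 cells, a mouse macrophage line that can form osteoclasts. The cells received RANKL at 50 ng/ml together with I-BET at 500 nM, I-BET at 500 nM, RANKL at 50 ng/ml (each for 4 h), or nothing. Each antibody and treatment gave 1 library, all from the same line, so there is no replicate check of any difference and no p-value is given. The intervals cover counting error only. Sequencing depth is not known from the lists, and the number of regions called can also move with depth and enrichment.

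BRD2 and BRD3 belong to the BET family, whose paired bromodomains bind acetylated lysines on histones and bring transcription machinery to active genes. I-BET compounds fill the acetyl-lysine pocket of these bromodomains. RANKL is the cytokine that drives macrophage precursors to become bone-resorbing osteoclasts, through its receptor RANK and NF-kappaB and AP-1 factors. The comparison of both agents with I-BET alone asks where BRD3 is called once RANKL is added to cells whose bromodomains are occupied by the inhibitor.

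The promoters below lie under both-agents-only regions and belong to genes described in the results. They are RefSeq sequences of build GRCm38.p6 (mm10), given 5′ to 3′ on the gene's strand, with 250 bases before and 50 from the start onward. Capitals mark the motifs searched on both strands, each defined with the motif results. Hspd1, Cad, Cebpa, Lcp1 and Ly86 stand for the MYC network and macrophage genes, Atp5k carries an NRF1 motif, and the regions at Tubg2 and Srsf6 were in no other BRD3 list.
Hspd1 (chr1:55088194-55088493, minus strand): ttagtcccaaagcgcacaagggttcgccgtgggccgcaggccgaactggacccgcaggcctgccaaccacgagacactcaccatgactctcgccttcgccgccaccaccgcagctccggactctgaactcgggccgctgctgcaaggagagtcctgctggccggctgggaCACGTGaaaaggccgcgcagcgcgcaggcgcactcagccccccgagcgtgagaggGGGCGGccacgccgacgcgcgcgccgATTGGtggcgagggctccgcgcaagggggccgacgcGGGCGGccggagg
Cad (chr5:31054530-31054829, plus strand): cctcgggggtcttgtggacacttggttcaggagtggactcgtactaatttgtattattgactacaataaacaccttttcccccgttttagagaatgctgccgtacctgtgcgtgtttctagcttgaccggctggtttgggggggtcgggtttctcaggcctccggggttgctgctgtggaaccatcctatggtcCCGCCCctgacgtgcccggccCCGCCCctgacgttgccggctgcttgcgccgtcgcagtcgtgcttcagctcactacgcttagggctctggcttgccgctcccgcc
Cebpa (chr7:35119043-35119342, plus strand): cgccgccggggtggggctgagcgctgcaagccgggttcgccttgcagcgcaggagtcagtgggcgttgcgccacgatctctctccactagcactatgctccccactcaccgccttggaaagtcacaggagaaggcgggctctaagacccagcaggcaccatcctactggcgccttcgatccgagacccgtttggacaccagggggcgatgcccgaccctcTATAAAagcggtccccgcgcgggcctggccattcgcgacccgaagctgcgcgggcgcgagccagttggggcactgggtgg
Lcp1 (chr14:75130873-75131172, plus strand): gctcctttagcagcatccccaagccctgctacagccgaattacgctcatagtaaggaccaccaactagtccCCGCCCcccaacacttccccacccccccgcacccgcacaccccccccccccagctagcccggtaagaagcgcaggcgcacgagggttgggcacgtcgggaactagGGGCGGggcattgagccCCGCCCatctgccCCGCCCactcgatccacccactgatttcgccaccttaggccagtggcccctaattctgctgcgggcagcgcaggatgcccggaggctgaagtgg
Ly86 (chr13:37345095-37345394, plus strand): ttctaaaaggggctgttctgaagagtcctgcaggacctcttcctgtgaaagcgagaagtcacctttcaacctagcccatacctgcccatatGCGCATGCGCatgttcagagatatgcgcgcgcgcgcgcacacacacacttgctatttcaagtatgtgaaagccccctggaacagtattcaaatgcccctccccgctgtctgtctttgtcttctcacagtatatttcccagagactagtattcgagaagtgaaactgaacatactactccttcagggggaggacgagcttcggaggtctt
Atp5k (chr5:108434350-108434649, minus strand): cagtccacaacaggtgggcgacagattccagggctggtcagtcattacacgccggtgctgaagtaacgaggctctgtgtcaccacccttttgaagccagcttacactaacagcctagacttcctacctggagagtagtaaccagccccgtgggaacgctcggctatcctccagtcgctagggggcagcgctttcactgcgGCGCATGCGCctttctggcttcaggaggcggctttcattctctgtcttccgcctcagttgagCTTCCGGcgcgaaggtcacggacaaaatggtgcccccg
Tubg2 (chr11:101155634-101155933, plus strand): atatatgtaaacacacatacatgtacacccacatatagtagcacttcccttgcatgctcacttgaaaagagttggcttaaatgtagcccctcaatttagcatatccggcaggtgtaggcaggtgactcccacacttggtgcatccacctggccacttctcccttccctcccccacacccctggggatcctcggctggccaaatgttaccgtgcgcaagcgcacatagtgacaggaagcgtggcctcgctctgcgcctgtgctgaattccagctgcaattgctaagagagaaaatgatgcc
Srsf6 (chr2:162931258-162931557, plus strand): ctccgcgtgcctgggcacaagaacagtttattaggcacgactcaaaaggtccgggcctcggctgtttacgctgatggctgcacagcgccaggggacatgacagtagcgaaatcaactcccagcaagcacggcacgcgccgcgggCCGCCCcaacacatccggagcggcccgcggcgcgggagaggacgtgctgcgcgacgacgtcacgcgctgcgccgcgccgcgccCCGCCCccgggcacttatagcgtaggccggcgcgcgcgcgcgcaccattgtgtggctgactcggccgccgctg
The Hspd1 promoter holds an E-box, the Cad, Lcp1 and Srsf6 promoters hold GC boxes, and the Cebpa promoter holds a TATA box at position -30. NRF1 motifs stand in the Atp5k promoter and, at position -159, in the Ly86 promoter. None of the 10 motifs is in the Tubg2 window.

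Nearly all I-BET regions were also called when RANKL was added: 2102 of 2232 (94.2%, 93.1 to 95.1%) were in the both-agents list, and 130 were not. The classes were far apart on the genome. The smallest overlap of a shared region was 296 bp, and the nearest both-agents-only region lay 1463 bp from an I-BET region, with the next at 2104 bp. The median distance was 141 kb, and 25 of the 738 lay within 10 kb of an I-BET region. In the list ordered along the chromosomes, 344 of the 738 had another both-agents-only region as a direct neighbour. The class is 26.0% of the list, so many such neighbours would occur in any order, and clustering was not tested. The share of both-agents-only regions per chromosome, leaving out Y with its single region, was between 18.2% on chromosome 10 and 36.5% on chromosome 13, where they were 46 of 126.

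Most both-agents-only regions were also called in cells that had not seen the inhibitor. The RANKL list held 558 of the 738 (75.6%, 72.3 to 78.7%), against 1918 of the 2104 shared regions (91.2%, 89.9 to 92.3%). The untreated list held 493 both-agents-only regions (66.8%, 63.3 to 70.2%), against 1864 shared regions (88.6%, 87.2 to 89.9%). By either list, 645 both-agents-only regions were accounted for (87.4%, 84.8 to 89.7%), against 2053 shared ones (97.6%). Of the 738, 406 were in both of these lists, 152 in the RANKL list alone and 87 in the untreated list alone. The remaining 93 (12.6%, 10.3 to 15.2%) were called in no other BRD3 list, against 51 of the shared regions (2.42%) that were in neither of these lists.

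**Figure D1:**
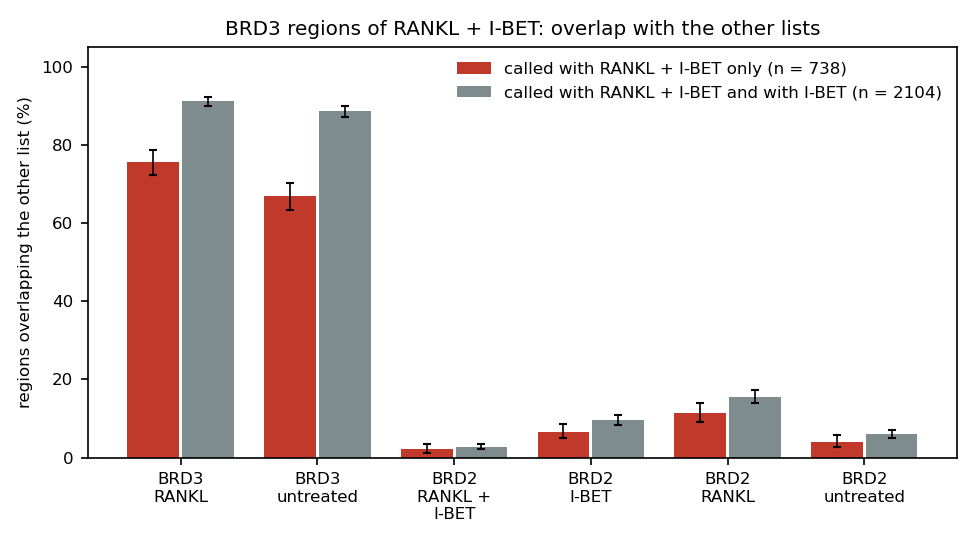
Share of BRD3 regions of RANKL + I-BET that overlap each other list (vertical axis, percent), for the 738 regions absent with I-BET alone (red, left) and the 2104 shared regions (grey, right); error bars are exact 95% binomial intervals. The RANKL list holds 75.6% of the red and 91.2% of the grey class, and each BRD2 list holds under 12% of the red class.

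BRD2 was called at few of them. Any of the 4 BRD2 lists held 128 both-agents-only regions (17.3%, 14.7 to 20.3%) and 465 shared regions (22.1%, 20.3 to 23.9%). By list, 16 both-agents-only regions were bound by BRD2 with both agents, 49 with I-BET, 84 with RANKL and 30 in untreated cells. The 16 called for both proteins under both agents include the regions at Myc, Ssrp1, Rps15, Ncoa4, Anapc1 and Trit1, named after their values were seen. The BRD2 list with both agents is short, with 245 regions, which limits any overlap with it.

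Both-agents-only regions were narrower than shared regions of the same list. Their median width was 468 bp, with quartiles of 408 and 545 bp and extremes of 298 and 6077 bp. Shared regions had a median of 607 bp, quartiles of 518 and 739 bp and extremes of 309 and 2543 bp, a ratio of medians of 0.771. The 2 distributions overlap over most of their range. In the narrowest quartile of the list, 298 to 479 bp, 56.7% of regions were absent with I-BET alone (53.0 to 60.4%). That share was 26.0% in the next quartile, 8.31% in the third and 12.7% in the widest.

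The authors' score did not separate the classes in this way. Its median was 138 in both-agents-only regions (quartiles 78 and 230) and 139 in shared regions (quartiles 84 and 231), and the both-agents-only share lay between 23.8% and 28.5% in every score quartile. The sources used here do not say what the score measures, and it is used only to rank regions within a list. Its rank correlation with width over the 2842 regions was 0.0269, so narrow regions were not the low-scoring ones. Across neighbouring regions of the list the scores themselves went together (rank correlation 0.582, a description over regions of 1 library).

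**Figure D2:**
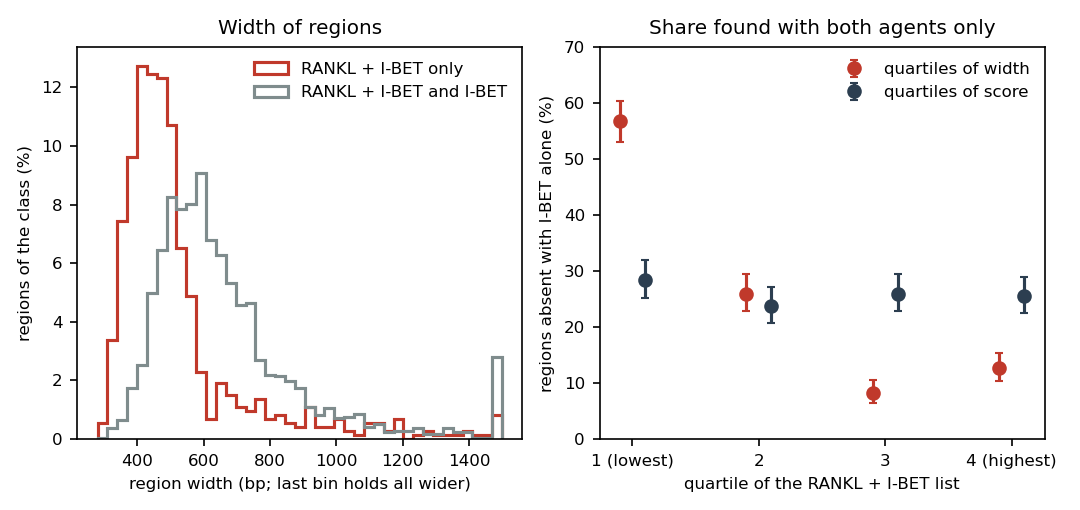
Left, width in bp of both-agents-only and shared regions as percent of each class, with the last bin holding all wider regions. Right, percent of the both-agents list absent with I-BET alone, by quartile of width or score, with exact 95% binomial intervals: the share is 56.7% in the narrowest and 12.7% in the widest quartile, and 23.8 to 28.5% across score quartiles.

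Many of the same positions were also narrower with both agents than in cells without the inhibitor. The 558 both-agents-only regions in the RANKL list had a median width of 476.5 bp with both agents, against 531 bp with RANKL, and 371 of them (66.5%) were the narrower of the pair. This came from the 406 regions also called untreated, of which 296 (72.9%) were narrower. Of the 152 called with RANKL and not untreated, 75 (49.3%) were narrower. The 493 in the untreated list had medians of 468 bp with both agents, against 577 bp untreated, and 353 (71.6%) were narrower. Shared regions were narrower than with RANKL at 1278 of 1918 (66.6%), nearly the same share, and narrower than untreated at 1103 of 1864 (59.2%). They were narrower than their own I-BET regions too, at 607 bp with both agents and 647 bp with I-BET, with 1355 of 2104 (64.4%) narrower. Presence in the RANKL list was lower for both-agents-only regions in each width quartile, by differing amounts: 70.4% against 89.6% of shared regions in the narrowest, 84.2% (78.2 to 89.2%) against 89.1% (86.1 to 91.7%) in the second, 79.7% (67.2 to 89.0%) against 90.6% (88.1 to 92.8%) in the third and 78.9% against 94.2% in the widest. In the second and the third quartile the intervals overlap.

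Most both-agents-only regions lay at gene ends, though a smaller share did so than in the shared class. For 485 of them (65.7%) the midpoint fell no more than 1 kb from an end of a gene coding for protein; it fell in a gene body for 139 (18.8%) and between genes for 114 (15.4%). Shared regions numbered 1609 at gene ends (76.5%), 314 in gene bodies (14.9%) and 181 between genes (8.60%). The difference of -10.8 points at gene ends was not the same in all width classes: the share was 66.2% against 67.6% of shared regions in the narrowest quartile, and 65.6% against 80.0% in the widest. In the second quartile the share was 62.5% against 71.9%. With both lists cut to regions under the median width, the difference was 4.03 points the other way. That cut also counts as both-agents-only the regions whose I-BET counterpart was wider, so its classes are not those used here.

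On chromosomes with listed starts, 416 of 718 both-agents-only midpoints (57.9%, 54.2 to 61.6%) were within 1 kb of a start. Of shared midpoints, 1487 of 2049 were (72.6%, 70.6 to 74.5%). Within that distance the classes had nearly the same position. Where a start with a known strand was within 1 kb, the both-agents-only midpoints lay at a median of -28.5 bp from it (quartiles -111 and 39 bp, 416 regions), and shared midpoints at -33 bp (quartiles -106 and 29 bp, 1487 regions). The midpoint was downstream of the start in 37.0% of both-agents-only and 35.8% of shared regions. Starts on both strands within 1 kb, the layout of a divergent promoter, were present at 14.2% of these both-agents-only regions and 13.4% of shared ones.

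**Figure D3:**
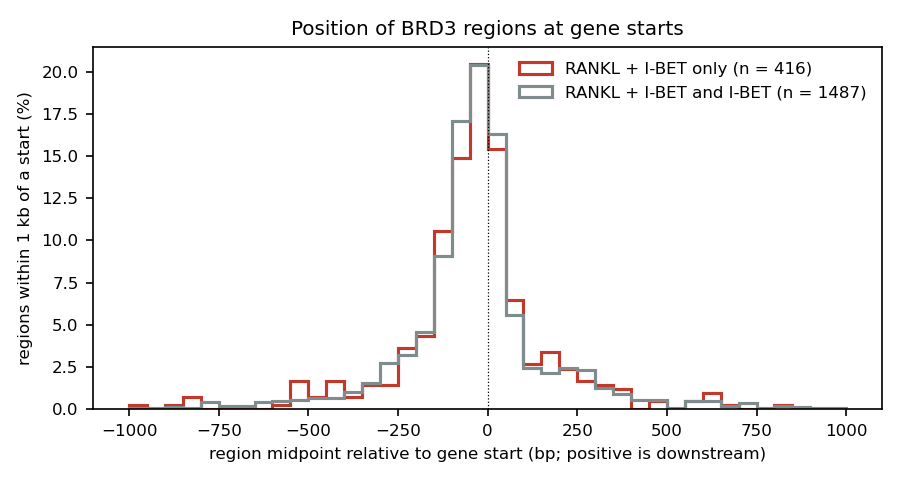
Distance of the region midpoint from the nearest gene start in bp (horizontal axis, positive is downstream of the start) for regions within 1 kb of a start, as percent of each class (vertical axis). Both classes peak just upstream of the start, with medians of -28.5 bp for the 416 both-agents-only regions and -33 bp for the 1487 shared regions.

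Promoter windows under the regions were rich in G and C in both classes. The 482 windows overlapped by both-agents-only regions had a median GC content of 62.7%, the 1851 under shared regions 64.0%, and all 21263 listed windows 56.3%. The median number of CpG dinucleotides was 24.5, 26 and 13 in that order. Several motifs of housekeeping promoters were held by similar shares of both classes: the E-box CACGTG, read by MYC and its partners, in 12.9% of both-agents-only, 11.5% of shared and 7.84% of all windows, and the ETS motif CCGGAAG in 21.8%, 20.9% and 11.6%. The GC box GGGCGG was in 68.5%, 73.4% and 46.2%, CCAAT in 39.4%, 34.4% and 38.2%, and the cyclic AMP response element TGACGTCA in 3.73%, 3.24% and 2.23%.

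Among the 10 motifs, that of NRF1 differed most between the classes by ratio. NRF1 is a factor for genes of mitochondria and growth, and its motif, the run of capitals in the Ly86 promoter above, was in 4.77% of both-agents-only windows (3.05 to 7.07%), 10.9% of shared windows (9.48 to 12.4%) and 1.33% of all windows. Under the narrowest regions the shares were near each other, at 5.45% of both-agents-only and 4.93% of shared windows. Under regions wider than the list's median they were 4.55% (1.49 to 10.3%) and 13.3% (11.5 to 15.3%). Motifs of stimulus-driven factors were rare under the regions: the AP-1 motif TGANTCA was in 1.87% of both-agents-only, 2.97% of shared and 6.99% of all windows, and the NF-kappaB motif (GGGA, any base, then TTTCC) in 0.207%, 0.216% and 0.423%. The C/EBP motif TTGCNNAA was in 6.43%, 7.24% and 10.2%, and TATAAA in 6.85%, 4.75% and 12.6%. A match is a description of letters in the window, and motifs of different factors can overlap.

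The regions reached 598 protein-coding genes, counting a gene when a region overlapped the 1 kb window around either end. These are 2.73% of 21887 genes in the table and 23.0% of the 2597 genes (11.9% of all) with any both-agents region. Of the 598, 592 had no I-BET region at an end, and 6 had one as well (Eef2, Sos2, Txndc15, Ndufb6, Txlna and Unc45a). The RANKL list held a region at 462 of the 598 and the untreated list at 435, with 367 in both, 95 in the RANKL list alone, 68 in the untreated list alone and 68 in neither. Exosc4 and Cdkn2d each carried 2 both-agents-only regions. Both-agents-only regions touched 97 genes in the 29 functional lists examined, and 501 genes in none of them.

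The MYC network was among the lists with the most both-agents-only genes. MYC is a transcription factor that drives cell growth, and 9 of the 43 list genes were both-agents-only, on 8 regions. They were 42.9% of the 21 with any both-agents region (21.8 to 66.0%), against 23.0% over all genes, and I-BET alone gave a region at 14. Myc itself had a region of 422 bp with both agents at chr15:61989493-61989914, and none with I-BET, RANKL or no treatment. It lay inside the gene (chr15:61985341-61990361), at the higher-coordinate end. The gene table does not give the strand, so the region is not taken as one at the promoter. BRD2 with both agents was called over the same place, at chr15:61989509-61989963, the only BRD2 call at Myc. The Myc region ranked 1182 of 2842 by score.

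Of the other MYC network genes, Tfrc, the transferrin receptor for iron uptake, had regions of 528 bp with both agents, none with I-BET, 490 bp with RANKL and 824 bp untreated. Srm, which makes spermidine, had 454 bp with both agents, none with I-BET, 1096 bp with RANKL and 1245 bp untreated. Cad, which starts pyrimidine synthesis, had 547 bp with both agents and 510 bp with RANKL, and no call with I-BET or untreated. At these 3 genes the both-agents call stood where a RANKL call also stood and the I-BET call was missing. Hspd1 and Hspe1, the mitochondrial chaperonin and its partner, share a divergent promoter and 1 region of 750 bp with both agents, none with I-BET, 869 bp with RANKL and 1094 bp untreated. Fbl, the methyltransferase of ribosomal RNA, had 447 bp with both agents, 550 bp with RANKL and 495 bp untreated. Mxd3, a partner of MAX that opposes MYC, had 583, 552 and 504 bp in that order, neither gene with an I-BET call. Rrp9, of the small nucleolar machinery that processes ribosomal RNA, had 394 bp with both agents and 707 bp untreated, with none in the I-BET and RANKL lists. In the other direction, Bysl and Phb had an I-BET region and none with both agents.

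**Figure D4:**
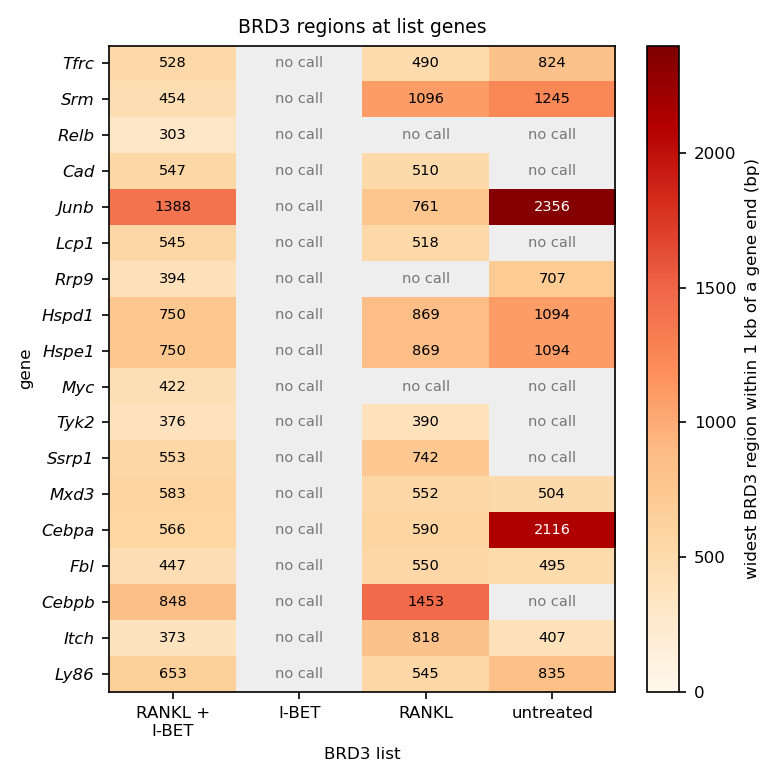
Width in bp of the widest BRD3 region within 1 kb of either end of each gene (colour and printed number) in the lists with RANKL + I-BET, I-BET, RANKL and no treatment, for the 18 both-agents-only genes of the MYC, RANK and NF-kappaB, immediate-early, negative regulator, macrophage, interferon and elongation lists; grey is no call. The I-BET column is empty by the choice of genes, and Myc and Relb have no call in any column but the first.

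Genes of RANK signalling and osteoclast function were both-agents-only about as rarely as genes in general (2.73%). Of 40 genes of RANK and NF-kappaB signalling, 6 had a both-agents region and 1 was both-agents-only (2.50% of the list). That gene is Relb, the NF-kappaB subunit of the non-canonical pathway, with 303 bp with both agents at chr7:19629308-19629610 and no region in any other BRD3 list. BRD2 with RANKL was called beside and partly over it, at chr7:19628990-19629331. Of 32 osteoclast genes 2 had a both-agents region, and both also had an I-BET region. Nfatc1, the master factor of osteoclasts, had no region in any of the 8 lists, and Ctsk, the collagen-cleaving protease, had BRD3 regions with RANKL and none with both agents, I-BET or no treatment.

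Junb, an AP-1 factor, was the 1 both-agents-only gene among 33 immediate-early genes, with 1388 bp with both agents, none with I-BET, 761 bp with RANKL and 2356 bp untreated. Its region lies outside the promoter window in the table, at the lower-coordinate end of the gene. Nr4a3, another early gene, had an I-BET region and none with both agents. Among 20 negative regulators of osteoclasts, Itch and Cebpa were both-agents-only. Itch, a ubiquitin ligase, had 373 bp with both agents, 818 bp with RANKL and 407 bp untreated. Tyk2, a kinase of interferon receptors, was the 1 of 34 interferon genes, with 376 bp with both agents and 390 bp with RANKL. None of 32 inflammatory genes had a region with both agents or with I-BET, and Tnf, the inflammatory cytokine, had one in the RANKL list.

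Of 40 macrophage identity genes, 4 had a both-agents region and all 4 were both-agents-only. The list held 16 genes with a region under RANKL, 13 untreated and 1 under I-BET, and the 4 of 40 with both agents are close to the 11.9% of all genes. The 1 gene under I-BET stands beside 9.73% of all genes. Cebpa, a factor of myeloid differentiation, had 566 bp with both agents, none with I-BET, 590 bp with RANKL and 2116 bp untreated. Cebpb, its relative in inflammatory macrophages, had 848 bp with both agents, 1453 bp with RANKL and no other BRD3 call, and its region lies outside its promoter window. Ly86, a partner of the receptor CD180, had 653 bp with both agents, 545 bp with RANKL and 835 bp untreated. Lcp1, an actin-bundling protein of white blood cells, had 545 bp with both agents and 518 bp with RANKL. The scores of Cebpa (88.3), Cebpb (45.0) and Ly86 (36.3) lay below the list's median, and with the higher-scoring 50% of each list 1 of 40 genes was both-agents-only.

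Spi1, the factor that sets macrophage identity, went the other way: no region with both agents, 948 bp with I-BET, and widest regions of 6587 bp with RANKL and 4010 bp untreated. BRD2 with both agents was called at Spi1, over 605 bp. Csf1r, the receptor for the macrophage growth factor, had no BRD3 region with both agents or I-BET and had one of 3294 bp with RANKL and 3095 bp untreated. Of the 10 macrophage markers used to check the cell type, 0 had a region with both agents, 1 with I-BET, 5 with RANKL and 4 untreated. None of 42 markers of 7 other cell types had one in any BRD3 list.

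Of the BET and elongation list, 9 of 38 genes had a both-agents region and 1 was both-agents-only. Ssrp1, a subunit of the histone chaperone FACT, had 553 bp with both agents, none with I-BET and 742 bp with RANKL. Hexim1, the inhibitor of the elongation kinase P-TEFb, was in both lists, with 634 bp with both agents and 1403 bp with I-BET. Brd2 itself was also in both.

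Among lists of growth and housekeeping genes, 6 had shares more than 10 points above the 23.0% of all genes, and all 6 intervals reach below it. They were glycolysis and HIF (50.0%), the aminoacyl-tRNA synthetases (46.7%), the proteasome (44.4%), the replication-dependent histones (37.9%), cell cycle and DNA replication (37.5%) and Mediator and Integrator (33.3%). Histone genes, which are transcribed in S phase, had 29 of 63 members with a both-agents region, 18 with I-BET, 46 with RANKL and 48 untreated. The 11 both-agents-only histone genes (37.9%, 20.7 to 57.7%) lie on 7 regions of chromosome 13, and neighbouring genes share a region. H4c8 had 561 bp with both agents, none with I-BET, 1253 bp with RANKL and 1157 bp untreated. H2ac10 and H3c8 share 1 region of 722 bp with both agents, and H2ac10 had 1801 bp with RANKL and 2728 bp untreated. The region of 373 bp inside H2bc9, which also reaches the 1 kb window of H3c7, was in no other BRD3 list. These genes are close copies of each other, so reads may be split between them.

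The list of 40 genes built around the aminoacyl-tRNA synthetases, which charge tRNAs for translation, also holds Aimp2. Of the 40 genes, 15 had a both-agents region and 7 of these (46.7%, 21.3 to 73.4%) were both-agents-only. All 7 (Mars2, Iars2, Rars2, Pars2, Sars2, Cars2 and Lars2) encode the mitochondrial forms. Split in this way after the values were seen, the 17 mitochondrial genes had a region at 10 with both agents, 3 with I-BET, 9 with RANKL and 7 untreated. The 23 other genes had one at 5 with both agents, 6 with I-BET, 8 with RANKL and 9 untreated. Cars2 had 546 bp with both agents, 506 bp with RANKL and 449 bp untreated. Lars2 had 585 bp with both agents and 544 bp with RANKL, and Pars2 had 366 bp with both agents and 798 bp untreated. The Lars2 region (chr9:123461727-123462311) lay at the higher-coordinate end of the gene (chr9:123366927-123462675). The counts take either end, so this region is not taken as one at a promoter. The mitochondrial ribosomal proteins did not share the pattern, with 4 of 26 both-agents-only (15.4%).

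Oxidative phosphorylation genes stood at the background, with 8 of 33 both-agents-only (24.2%). Atp5k, of the ATP synthase, had 419 bp with both agents and 471 bp untreated, and no call with I-BET or RANKL. Chaperones (6 of 25), ribosome biogenesis (5 of 20) and chromatin modifiers (5 of 19) were near it too. Chromatin modifiers included Wdr5, a core subunit of histone H3 lysine methyltransferases, with 477 bp with both agents, 437 bp with RANKL and 1756 bp untreated, and Ezh2, the Polycomb methyltransferase, with 499, 496 and 811 bp in that order. In the same list Hdac2, Kdm2a, Kdm5d, Kdm6b and Kmt2e had an I-BET region and none with both agents. These are 5 of the 19 with an I-BET region at an end, against 6.10% over all genes with one. The contrast was picked out of the 29 lists, rests on few genes and was not tested.

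The remaining lists gave 2 to 6 both-agents-only genes each, except the antigen presentation and unfolded protein lists with none. Proteasome genes were 4 of 9 with Psma5 at 477 bp with both agents, 691 bp with RANKL and 524 bp untreated. Mediator and Integrator, which couple factors to RNA polymerase II and process its transcripts, had 5 of 15, among them Ints6 with 827 bp with both agents and 1255 bp untreated. Cell cycle and DNA replication had 6 of 16 (Rpa1, Ccnb1, E2f1, Orc3, Pold1 and Pola1), and glycolysis had Pfkl, Slc16a3 and Eno1 of 6. Cytosolic ribosomal proteins had 4 of 21, translation factors 4 of 24, splicing factors 5 of 31, the lysosome and its proton pump 2 of 13, RNA polymerases 2 of 12, nucleotide and polyamine synthesis 2 of 11 and cholesterol and lipid synthesis 2 of 8.

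**Figure D5:**
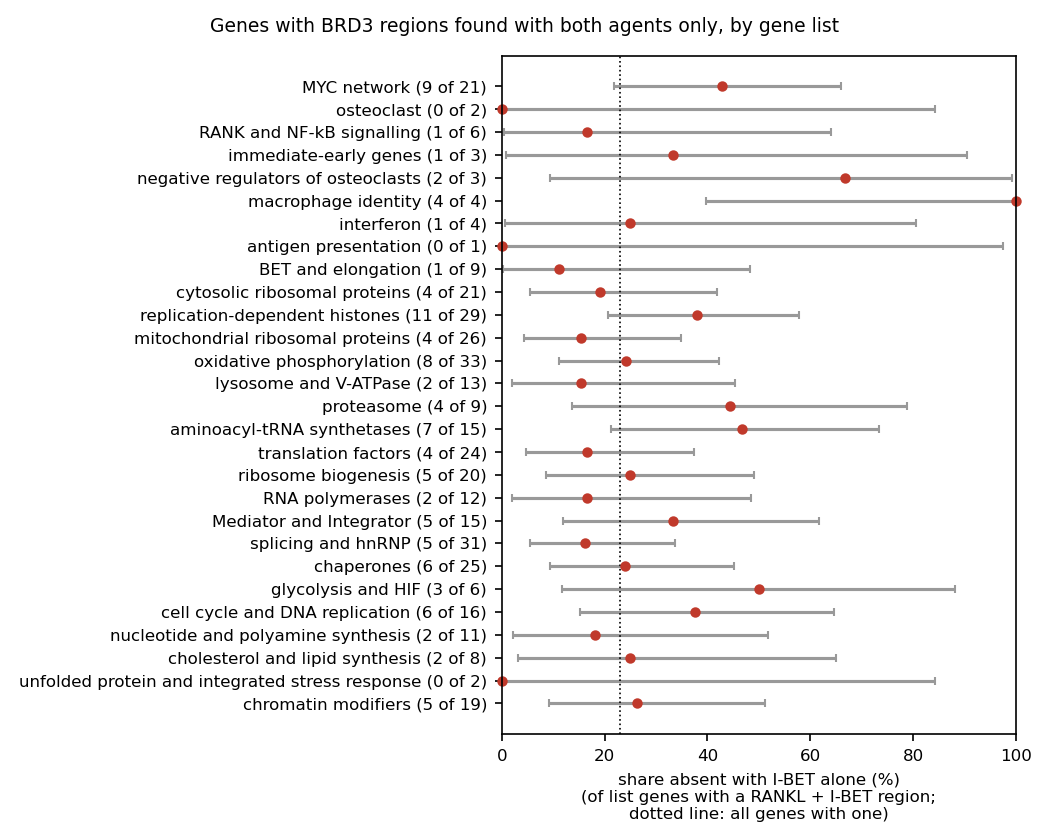
Share of genes with a RANKL + I-BET region that have a both-agents-only region (horizontal axis, percent, exact 95% binomial intervals). Each list is on the vertical axis, with both-agents-only genes of genes with a both-agents region. Of all 598 both-agents-only genes, 6 also have an I-BET region at an end. The dotted line is 23.0%, the share over all 2597 genes: the MYC network stands at 42.9%, all 4 macrophage genes at 100%, and most intervals cross the line.

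The highest-scoring both-agents-only regions were mostly at genes outside these lists. That at Cklf, a chemokine-like gene, ranked 3 of 2842 by score and had 396 bp with both agents, none with I-BET, 413 bp with RANKL and 438 bp untreated. A region in the body of Nfatc3, at chr8:106063022-106063426, ranked 4 and was called untreated but not with RANKL. Next came a region at the adjacent ends of Adamts13 and Cacfd1, then those at Wdr5 and Rhpn1. The region at Tubg2, a gamma-tubulin, ranked 25 by score and was 345 bp wide, at chr11:101155696-101156040, with no call in any other BRD3 list or in any BRD2 list.

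The widest both-agents-only region, 6077 bp at chr17:39842890-39848966, covers Rn18s-rs5, a copy of the ribosomal RNA unit. Such repeats collect reads from many copies, so its position is uncertain. The next widest were 1808 bp at Prkar2a, a regulatory subunit of protein kinase A, then 1768 bp at chr10:82858901-82860668 and 1664 bp at Prpf4b, a splicing kinase. The region on chromosome 10 lay in a gene body, and the nearest gene end, 6842 bp away, was that of Eid3. All 10 of the widest had a call in the RANKL or the untreated list.

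After Tubg2, the highest-scoring regions seen in no other BRD3 list were those at H2bc9 and H3c7, at Bicd2, a dynein adaptor (419 bp), at Srsf6, a splicing factor (467 bp), and one at chr16:91534428-91534928 between genes near Ifngr2. Of the 93 such regions, Srsf6, Relb, Epc1, Myc and N6amt1 are the 5 highest-scoring that also had a BRD2 call in some treatment. Regions in neither other list were the narrowest of the class, with a median width of 430 bp, against 474 bp for those in both the RANKL and untreated lists, 487.5 bp for RANKL alone and 436 bp for untreated alone.

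Few regions of either class had a short non-coding gene within 500 bp. tRNA genes were near 8 both-agents-only regions (1.08%) and 22 shared ones (1.05%), microRNA genes near 8 (1.08%) and 13 (0.618%), and small nuclear RNA genes near 3 (0.407%) and 4 (0.190%). Small nucleolar RNA genes were near 2 (0.271%) and 6 (0.285%), and long non-coding RNA genes near 88 (11.9%) and 323 (15.4%).

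The opposite class, I-BET regions not found when RANKL was added, was small. Its 130 regions (5.82% of the I-BET list) had a median width of 532.5 bp, and 94 (72.3%) lay at gene ends. The RANKL list held 100 of them (76.9%) and the untreated list 90 (69.2%), with 12 (9.23%) in neither, shares close to those of both-agents-only regions. Counted by gene, 130 genes had an I-BET region at an end and none with both agents. That is 6.10% of the 2130 genes (9.73% of all) with an I-BET region. These genes do not all rest on the 130 regions. The I-BET regions at Pxn (2701 bp), H4c17 (2342 bp) and Rcc2 (2026 bp) are wider than the widest region of the class, 1960 bp. Kansl1l, Rsl1d1 and the pair Aimp2 and Pms2 were the genes at the 5 highest-scoring regions of the class, and all had RANKL and untreated calls.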

How the data were processed

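BRD3, BRD2 and input libraries of RAW264.7 cells were made by the authors by ChIP-seq with 50-base reads, 1 library per antibody and treatment. Per the submitters' processing notes, FastQC, Bowtie2 2.3.4.1 and MACS2 2.1.1.20160309 were used, with build mm10 (GRCm38). The authors deposited 8 lists of regions, each joined from peaks of 3 sets numbered 3, 5 and 7. The deposited score of a region is the authors' own value. The sources used here do not give its meaning, the peak thresholds or the depth. The 4 input libraries have no list and were not used.

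Region starts were read as 0-based and are given 1-based. Regions were joined by an overlap of 1 bp. Protein-coding genes (21887) came from the RefSeq table of GRCm38.p6, which gives neither strand nor exons. A gene counted as bound when a region overlapped the window of 1 kb around either end. A strand was known for the 17492 genes with a promoter entry, among them 484 of the 598 both-agents-only genes. Motifs were searched on both strands. Shares have exact (Clopper-Pearson) 95% intervals, and with 1 library per group no test was made. Python 3.11.15, pandas 2.3.3, SciPy 1.17.1 and matplotlib 3.10.9 were used, and the overlap and gene window steps were tested on simulated data. The motif search was not tested in this way.

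The regions and the 29 gene lists (1398 distinct genes) were chosen with earlier results of these data known. Named genes were all both-agents-only members of the MYC, elongation, macrophage, osteoclast, osteoclast-inhibitor, RANK, immediate-early, antigen presentation, interferon and inflammatory lists, the 3 highest-scoring of each other list, those of the 10 highest-scoring and 10 widest regions, the 5 highest-scoring in no other BRD3 list and the 5 of these with a BRD2 call, 12 fixed genes, and those of the 5 highest-scoring I-BET regions not found with both agents. Some were given by count only. Alternatives changed the overlap, the score or width range, the number of joined peaks and the gene window.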

Additional observations from a re-analysis of the deposited data

Results flagged for a closer look

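The number of listed regions moved in opposite directions for the 2 proteins when RANKL was added to I-BET, which is what drew attention to it. For BRD3 there were 2842 regions with both agents and 2232 with I-BET, a difference of 610. For BRD2 there were 245 regions with both agents and 1067 with I-BET, a difference of -822. Without the inhibitor both lists were longer with RANKL than in untreated cells, by 172 regions for BRD3 (3840 with RANKL, 3668 untreated) and by 1138 for BRD2 (1716 with RANKL, 578 untreated). Each list comes from 1 library, so the difference between the proteins was not tested.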

How the results depend on the processing

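Of 103 recomputed values, 86 stayed within their interval or 1.5 times, 16 moved and 1 reversed. Requiring 50% overlap, counting regions within 1 kb as shared, taking regions of exactly 3 joined peaks, or leaving out the ribosomal DNA region and chromosome Y (chosen after seeing the data) moved 0 values. With the higher-scoring 50% of each list the both-agents-only share was 55.7%, the I-BET regions also found with both agents 56.2%, presence in the other BRD3 lists 60.5%, in BRD2 lists 11.9% and at gene ends 72.0%. With lists cut to the same length by score, 74.9% of I-BET regions were also found. With both lists cut at the median width of 571 bp, these were 66.0%, 70.8%, 90.3% in other BRD3 lists and 69.5% at gene ends, where the difference from shared regions reversed from -10.8 to 4.03 points. Cutting both lists removes counterparts by construction, which raises the both-agents-only share and moves regions between the classes. The reversal at gene ends is for those changed classes. With the classes as reported, the gene-end share was lower for both-agents-only regions in every width quartile, with overlapping intervals in all but the widest. A gene window of 500 bp gave 61.4% at gene ends and one of 5 kb gave 74.0%. Macrophage genes numbered 1 to 4 and histone genes 4 to 16 over all settings run. No paired analysis was possible because each group has 1 library and the labels carry no replicate numbers, and for the same reason no library could be left out. Unknown depth limits any reading of a missing call.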
